A study of Homo sapiens with 18 samples.

Results

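Amino acids cross the plasma membrane and the lysosomal membrane through solute carriers, and the genes described here are those whose symbol begins with SLC1A, SLC3A, SLC6A, SLC7A, SLC36A, SLC38A or SLC43A. The prefixes picked 60 of the 20263 genes in the count table, and the rule uses symbols alone. All 60 are annotated as protein coding. Of these, 59 encode carriers or carrier subunits, and SLC7A6OS was picked only because it is named for its neighbour SLC7A6, whose exons it overlaps on the opposite strand. Symbol families do not equal substrates: SLC6A8 carries creatine, SLC6A6 taurine and SLC43A3 purine nucleobases, and SLC6A3 and SLC6A4 carry monoamines.

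The study measured RNA in 18 libraries from cultured human cancer cells labelled MHCC-97H (a liver cancer line), MDA-MB-231 (a breast cancer line) and HCT-116 (a colorectal cancer line). Under each label, 3 libraries came from cells given H3B-8800, a modulator of the SF3b part of the spliceosome, at 20 nM for 24 h, and 3 came from cells given DMSO, its solvent, for the same time. All were labelled as wild type and were grown in high-glucose DMEM with 10% serum, and total RNA was taken with Trizol. No label tells whether the 3 libraries of a group were separate cultures, so p-values measure only the spread between these libraries, which may be technical.

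Glutamine and other neutral amino acids enter cells with sodium through SLC1A5, SLC38A1 and SLC38A2. SLC3A2 is the heavy chain that brings light chains of the SLC7 family to the cell surface: SLC7A5 exchanges internal glutamine for leucine and other large neutral amino acids, and SLC7A11 exchanges glutamate for cystine, the precursor used for glutathione. Several of these genes are well known targets of the transcription factor ATF4, which is made when amino acids run short.

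Library totals ran from 28232315 to 41488278 counts. Markers went against 2 of the labels and were mixed for HCT-116. Levels are given as CPM, counts scaled to library size by TMM. In MHCC-97H libraries, labelled as liver, 6 of 7 liver markers were at 0 (ALB, which encodes albumin, among them) and FGB averaged 0.109 CPM. ALB averaged 16.4 CPM in MDA-MB-231 and 20.4 CPM in HCT-116 libraries, and APOB, another liver marker, 9.49 and 10.2 CPM. All 5 intestinal markers were at 0 in MHCC-97H libraries and present in the others, where KRT20, an intestinal keratin, averaged 855 CPM (MDA-MB-231, labelled as breast) and 878 CPM (HCT-116). Mesenchymal markers were split. VIM averaged 1298 CPM in MHCC-97H, 18.7 CPM in MDA-MB-231 and 21.2 CPM in HCT-116 libraries. FN1 averaged 141, 8299 and 8773 CPM in the same order. Epithelial markers were split too. EPCAM averaged 17.8, 0.0166 and 0.0775 CPM in that order, while CDH1, KRT19, KRT8 and KRT18 were lowest under MHCC-97H. Of the breast basal markers, KRT17 averaged 1664, 0.228 and 0.182 CPM and TP63 2.63, 1.38 and 1.81 CPM. KRT5 and KRT14 averaged at most 0.0440 CPM under any label. Among DMSO libraries, 5 of 14234 genes (0.0351%) differed between MDA-MB-231 and HCT-116, and 0 of 41 transporter genes did (edgeR's quasi-likelihood test, adjusted p under 0.05). At an unadjusted p under 0.05, 5 of the 41 differed, against 4.13% of all genes. The names used here are those of the labels only. Tests against the mean of the last 2 labels enter them as separate groups, and SDs over their 6 DMSO libraries pool them. Neither should be read as evidence from 2 independent lines.

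Of the 60 genes, 41 passed the filter on low counts. None of the other 19 had more than 30 counts over all 18 libraries, and 9 of them had none, among them SLC6A5, SLC7A3 and SLC36A2. An average of at least 1 CPM was reached by 29 genes under MHCC-97H, 31 under MDA-MB-231 and 31 under HCT-116, and by 24 under all 3 labels. Per kilobase of exon and over all 18 libraries, the creatine carrier SLC6A8 stood highest at 246 CPM per kilobase, followed by SLC1A5 at 146, SLC7A5 at 135, SLC6A6 at 67.8, SLC38A2 at 58.6, SLC38A5 at 46.4, SLC3A2 at 33.6 and SLC38A1 at 28.1. The order differed by label. Under MHCC-97H, SLC6A8 (333 CPM per kilobase) and SLC7A5 (174) led, and SLC1A5 (51.5), SLC38A5 (51.5) and SLC3A2 (49.2) lay together. Under HCT-116, SLC6A8 (205) and SLC1A5 (193) led, followed by SLC7A5 (110) and SLC6A6 (106). Reads of SLC6A8, SLC7A5 and SLC6A6 may be split with near-identical pseudogenes, so their levels are uncertain, and 26 of the 60 genes share exonic sequence with another annotated gene.

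**Figure D1:**
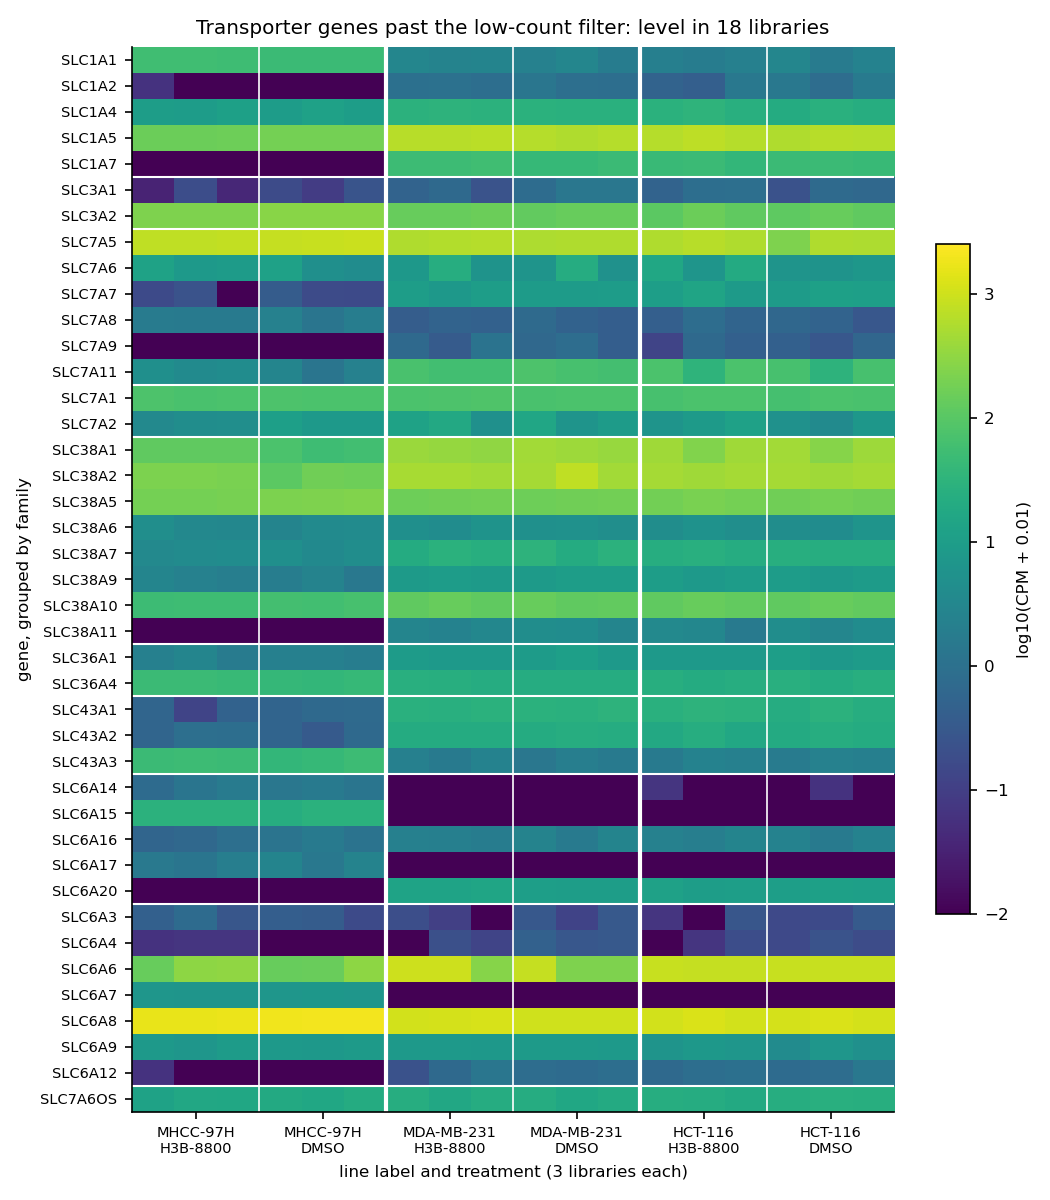
Level of the 41 transporter genes past the filter, as log10(CPM + 0.01), in 18 libraries (columns, 3 for each line label and treatment), with genes grouped by family. SLC6A8 is bright in every library, and blocks of genes differ between the MHCC-97H label and the other 2 labels, while neighbouring treatment columns look alike.

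After H3B-8800, the plain result under the MHCC-97H label was a rise of SLC38A1 and SLC38A2, falls of 0.25 to 0.29 on the log2 scale of SLC6A8, SLC38A5, SLC1A5, SLC38A10 and SLC3A2, and a fall of 0.90 of the weakly expressed SLC6A16. Against DMSO, 8 of 41 transporter genes changed (edgeR, adjusted p under 0.05), 2 higher and 6 lower, against 27.6% of all genes (12.9% higher and 14.7% lower). At an unadjusted p under 0.05 it was 13 of 41, against 39.2% of all genes. The number of calls was 3 without MHCC-97H H3B-8800 replicate 2 and 5 without MHCC-97H DMSO replicate 3. Over all genes those fits called 2336 of 14394 and 2141 of 14391. Among genes averaging at least 1 CPM under this label, 8 of 29 transporter genes changed (27.6%), against 32.3% of all such genes. The share of transporter genes that changed was thus not above that of other genes. The median log2 fold change was -0.03 over these 29 genes and -0.08 over all genes averaging at least 1 CPM. In the SLC38 family 4 of 8 tested genes changed, in SLC1 1 of 5, in SLC3 1 of 2, in both SLC6 groups together 2 of 12, and among the carriers of SLC7, SLC36 and SLC43 none of 13 did by edgeR's test (5 of them were under an unadjusted p of 0.05).

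SLC38A1, a sodium-coupled carrier of glutamine and other neutral amino acids, had 119, 121 and 121 CPM in the H3B-8800 libraries, against 74.8, 54.1 and 58.1 CPM in the DMSO libraries. Every H3B-8800 library lay above every DMSO library. The log2 fold change was 0.95 with a standard error of 0.22 (adjusted p = 0.00696, edgeR). Of the 8 genes it had the lowest adjusted p, and it remained past the threshold when any 1 of the 18 libraries was left out.

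SLC38A2, the neutral amino acid carrier that cells make more of when amino acids are scarce, had 211, 217 and 202 CPM in the H3B-8800 libraries, against 108, 169 and 163 CPM in the DMSO libraries. The groups did not overlap, but DMSO replicate 1 lay well under its 2 fellows. The log2 fold change was 0.51 with a standard error of 0.18 (adjusted p = 0.0411, edgeR). Without DMSO replicate 1 it was 0.34 (adjusted p = 0.147). Other single libraries also ended the call when left out: DMSO replicate 3 (adjusted p = 0.0599), each of the 3 treated libraries (0.0661 to 0.105), MDA-MB-231 H3B-8800 replicate 2 (0.0516) and HCT-116 DMSO replicate 3 (0.0515).

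The windows around the annotated starts of both risers are shown with those of 2 fallers, SLC3A2 and SLC1A5, so that genes that moved in opposite directions can be set side by side. Each is 300 bases long, 250 before to 50 after a RefSeq start on GRCh38.p14, 5′ to 3′ on the gene's strand, and capitals mark the letters TGATGNAA on either strand, the core of the C/EBP-ATF response element that ATF4 can bind. Where a gene has several starts, the window that holds the letters was printed.
SLC38A1, chr12:46266467-46266766, minus strand: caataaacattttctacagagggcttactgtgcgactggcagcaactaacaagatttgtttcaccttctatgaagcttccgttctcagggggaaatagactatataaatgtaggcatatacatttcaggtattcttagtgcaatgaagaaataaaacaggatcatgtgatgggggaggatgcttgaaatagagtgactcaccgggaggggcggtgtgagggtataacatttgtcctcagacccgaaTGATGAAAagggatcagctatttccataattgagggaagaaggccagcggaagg
SLC38A2, chr12:46372724-46373023, minus strand: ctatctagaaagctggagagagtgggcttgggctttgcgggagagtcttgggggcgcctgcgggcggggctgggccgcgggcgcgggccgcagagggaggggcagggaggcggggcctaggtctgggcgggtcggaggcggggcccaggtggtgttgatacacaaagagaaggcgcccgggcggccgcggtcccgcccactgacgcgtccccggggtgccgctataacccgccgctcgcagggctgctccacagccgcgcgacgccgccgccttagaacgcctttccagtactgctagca
SLC3A2, chr11:62881449-62881748, plus strand: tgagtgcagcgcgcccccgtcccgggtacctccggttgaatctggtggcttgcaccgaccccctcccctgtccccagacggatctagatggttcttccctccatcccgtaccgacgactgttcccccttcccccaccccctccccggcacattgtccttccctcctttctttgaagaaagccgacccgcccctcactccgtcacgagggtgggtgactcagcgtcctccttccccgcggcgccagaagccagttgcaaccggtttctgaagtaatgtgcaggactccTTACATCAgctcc
SLC1A5, chr19:46784765-46785064, minus strand: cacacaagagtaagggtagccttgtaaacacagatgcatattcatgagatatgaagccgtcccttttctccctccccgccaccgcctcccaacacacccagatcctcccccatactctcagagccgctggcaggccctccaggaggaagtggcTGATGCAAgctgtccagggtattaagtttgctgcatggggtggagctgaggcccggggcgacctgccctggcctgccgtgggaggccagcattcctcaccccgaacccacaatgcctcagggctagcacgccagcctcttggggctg
The letters begin at base 247 of the SLC38A1 window, at base 288 of the SLC3A2 window (on the other strand) and at base 154 of the SLC1A5 window, and the SLC38A2 window holds none. The windows of SLC38A1, SLC3A2 and SLC1A5 were picked for holding the letters, and the other windows of these genes hold none. That a riser and 2 fallers share them was thus fixed by the choice and says nothing of direction. RefSeq windows were matched for 45 transporter genes, 67 windows in all. The letters were in 6 of the 67 (8.96%), against 3.62% of all 35116 windows, in SLC1A3, SLC1A4, SLC1A5, SLC38A1, SLC3A2 and SLC7A1. The E-box CACGTG was in 10 of the 67 (14.9%), against 7.26% of all windows. These are matches of letters in a window and say nothing of binding. SLC38A1 and SLC38A2 lie next to each other on chromosome 12, at 46183063 to 46270017 and 46358189 to 46372867 (GRCh38, minus strand), with SLC38A4, a carrier with 4 counts in all 18 libraries, at 46764761 to 46832408.

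Among the falls, SLC1A5, the main sodium-dependent glutamine exchanger, had 153, 153 and 163 CPM in the H3B-8800 libraries, against 186, 190 and 186 CPM in the DMSO libraries. SLC3A2, the heavy chain, had 230, 229 and 228 CPM in the H3B-8800 libraries, against 280, 281 and 280 CPM in the DMSO libraries. Both groups of 3 were tight and did not overlap for either gene. SLC1A5 fell by 0.26 on the log2 scale with a standard error of 0.07 (adjusted p = 0.0127, edgeR). SLC3A2 fell by 0.29 with a standard error of 0.10 (adjusted p = 0.0423, edgeR). Its call was lost with RLE scaling (adjusted p = 0.0717, edgeR), with upper-quartile scaling (0.0929, edgeR) and by DESeq2 (0.0510). The SLC3A2 call did not hold without any 1 of the 6 MHCC-97H libraries (adjusted p of 0.0780 or more), nor without MDA-MB-231 DMSO replicate 2, the first or second treated MDA-MB-231 library, or HCT-116 DMSO replicate 3 (0.0505 to 0.0536). Without H3B-8800 replicate 2 the adjusted p of SLC1A5 lay at the threshold and the call was lost, with a log2 fold change of -0.24.

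SLC6A8, the creatine carrier, had 1691, 1624 and 1705 CPM in the H3B-8800 libraries, against 1932, 2007 and 2028 CPM in the DMSO libraries. SLC38A5, which moves glutamine, histidine and other neutral amino acids with sodium in and protons out, had 183, 187 and 193 CPM in the H3B-8800 libraries, against 220, 224 and 233 CPM in the DMSO libraries. Neither gene's groups overlapped. SLC6A8 fell by 0.25 (standard error 0.06, adjusted p = 0.00741, edgeR) and SLC38A5 fell by 0.26 on the log2 scale (standard error 0.06, adjusted p = 0.00795), and both calls held without any 1 of the 18 libraries.

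SLC38A10, an intracellular member of the same family, had 51.3, 51.6 and 52.3 CPM in the H3B-8800 libraries, against 60.3, 58.9 and 66.1 CPM in the DMSO libraries, a log2 fold change of -0.26 (standard error 0.08, adjusted p = 0.0227, edgeR). SLC6A16, an orphan carrier with no settled substrate, was weakly expressed, at 0.555, 0.643 and 0.926 CPM in the H3B-8800 libraries, against 1.16, 1.67 and 1.14 CPM in the DMSO libraries, a log2 fold change of -0.90 (standard error 0.28, adjusted p = 0.0261, edgeR). The groups did not overlap for either gene. Neither call was robust to single libraries. SLC38A10 lost it when DMSO replicate 3 was left out (adjusted p = 0.108), and when the first (0.0629) or the second (0.0643) treated library was. SLC6A16 lost it when DMSO replicate 2 was left out (0.111), and when the first (0.102) or the second (0.0853) treated library was. With upper-quartile scaling SLC38A10 lost its call too (adjusted p = 0.0552, edgeR). So did SLC6A16 by limma voom (0.0606) and in the 6 MHCC-97H libraries fitted alone (0.0811, edgeR).

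**Figure D2:**
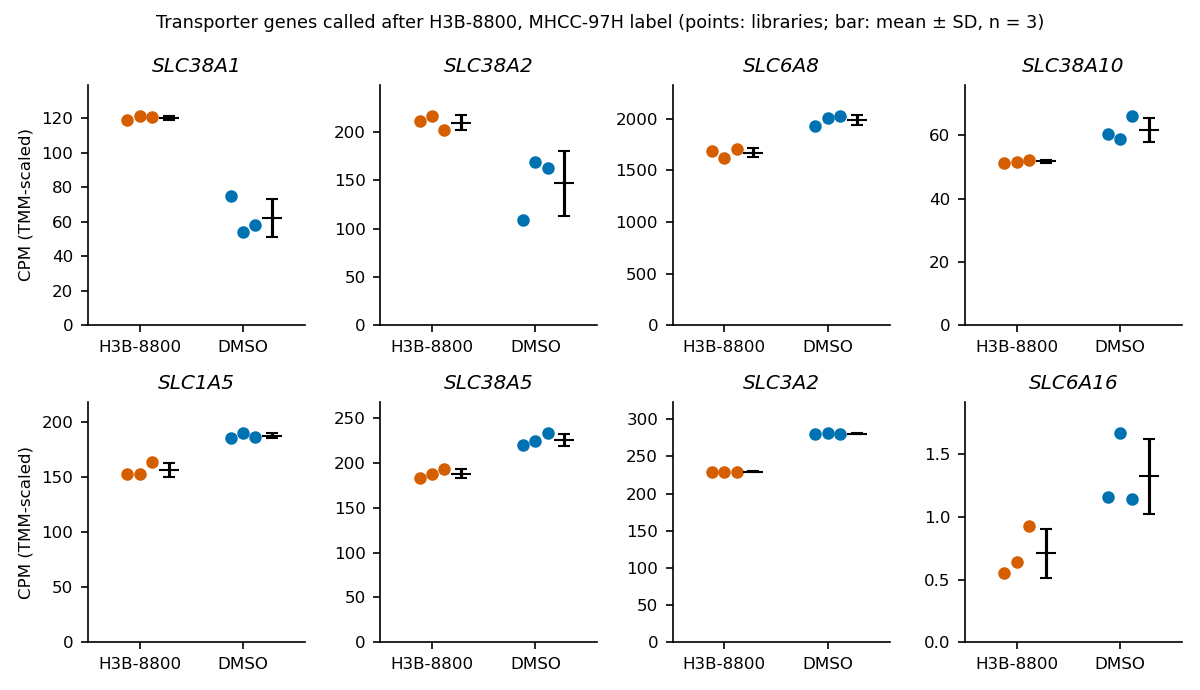
CPM of the 8 transporter genes called under the MHCC-97H label, in 3 H3B-8800 libraries (orange) and 3 DMSO libraries (blue), with the mean ± SD of each group as a black bar and y axes that start at 0. SLC38A1 and SLC38A2 lie higher with H3B-8800 and the other 6 lie lower, and in SLC38A2 the DMSO library at 108 CPM stands apart from its fellows at 169 and 163 CPM.

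The light chains and cationic carriers that did not pass the test included several familiar names. SLC7A5 had 777, 747 and 800 CPM in the H3B-8800 libraries, against 852, 864 and 910 CPM in the DMSO libraries. All H3B-8800 libraries lay below all DMSO libraries, yet the log2 fold change of -0.18 had a standard error of 0.21 (adjusted p = 0.599, edgeR). The spread is estimated over all 18 libraries, among them HCT-116 DMSO replicate 1 at 229 CPM, with 573 and 532 CPM in its fellows. Without that library the adjusted p was 0.0271. In the 6 MHCC-97H libraries fitted alone the log2 fold change was -0.12 (adjusted p = 0.0305, edgeR). SLC7A5 did not pass in the other 17 leave-one-out fits or in 8 further settings, and its sign turned in 2 more.

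SLC7A11, the cystine carrier, had 4.89, 3.86 and 4.21 CPM in the H3B-8800 libraries, against 2.91, 1.22 and 2.35 CPM in the DMSO libraries. The groups did not overlap, and the log2 fold change was 0.98 with a standard error of 0.38 (adjusted p = 0.0708, edgeR). It passed the threshold without HCT-116 DMSO replicate 2 (adjusted p = 0.0380) or HCT-116 H3B-8800 replicate 2 (0.0306). It also passed with the replicate number as a block (1.02, adjusted p = 0.000821, edgeR), by DESeq2 (1.00, 0.0109) and in the 6 MHCC-97H libraries fitted alone (1.05, 0.0288). It did not pass in the other 16 leave-one-out fits or in 7 further settings. Among those were library totals (1.11, adjusted p = 0.0600, edgeR) and removal of the trend on GC content and length (0.60, 0.232). With the block added to that removal it passed (0.65, 0.0108). SLC7A2, a carrier of arginine and lysine, had 3.53, 4.53 and 4.72 CPM in the H3B-8800 libraries, against 11.1, 8.45 and 8.06 CPM in the DMSO libraries, a log2 fold change of -1.11 (standard error 0.43, adjusted p = 0.0645, edgeR). SLC7A1, the widely expressed arginine carrier, was at 77.4, 71.0 and 72.6 CPM in the H3B-8800 libraries, against 77.0, 75.7 and 73.4 CPM in the DMSO libraries, and those groups overlapped.

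SLC38A9, the lysosomal carrier that reports arginine to mTORC1, had 2.87, 2.37 and 2.00 CPM in the H3B-8800 libraries, against 1.95, 2.60 and 1.42 CPM in the DMSO libraries, and the groups overlapped (log2 fold change 0.29, standard error 0.19, adjusted p = 0.283, edgeR). SLC36A4, an amino acid carrier of the proton-coupled family, had 47.0, 48.8 and 43.2 CPM in the H3B-8800 libraries, against 39.7, 38.5 and 41.2 CPM in the DMSO libraries, with no overlap and a log2 fold change of 0.22 (standard error 0.08, adjusted p = 0.0600). Counting all 41 tested genes by overlap alone, 7 had every H3B-8800 library above every DMSO library (19.6% of all genes did) and 9 had every one below (28% of all genes).

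The direction of change went with base composition. Transcripts of SLC38A1 and SLC38A2 hold 43.3% and 38.8% GC, and those of the 6 fallers hold 50.2% to 62.7%. Over the 29 genes averaging at least 1 CPM, Spearman's rho between log2 fold change and GC content was -0.52, and over 11840 genes of the table it was -0.61, with all points sharing the same 6 libraries. When each library's trend on GC content and exonic length was taken out, 2 transporter genes were called (1 higher and 1 lower), and 2102 of all 14234 genes were: SLC38A1 kept a log2 fold change of 0.62 (adjusted p = 0.0132, edgeR), and SLC7A2 was newly called at -1.41 (adjusted p = 0.0328). SLC1A5 then stood at 0.011 (adjusted p = 0.952), SLC6A8 at -0.039 (0.286), SLC38A5 at -0.020 (0.802), SLC3A2 at -0.11 (0.314), SLC38A10 at -0.14 (0.215) and SLC6A16 at -0.77 (0.0867), and SLC38A2 at 0.22 (0.491). With library totals in place of TMM scaling, all 6 falls kept their sign without passing the test, and 2847 of all 14234 genes were called. Among these were 4 transporter genes, all higher: SLC38A1 (1.08, adjusted p = 0.00350, edgeR), SLC38A2 (0.65, 0.0156), SLC36A4 (0.35, 0.0106) and SLC43A2 (0.72, 0.0378).

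**Figure D3:**
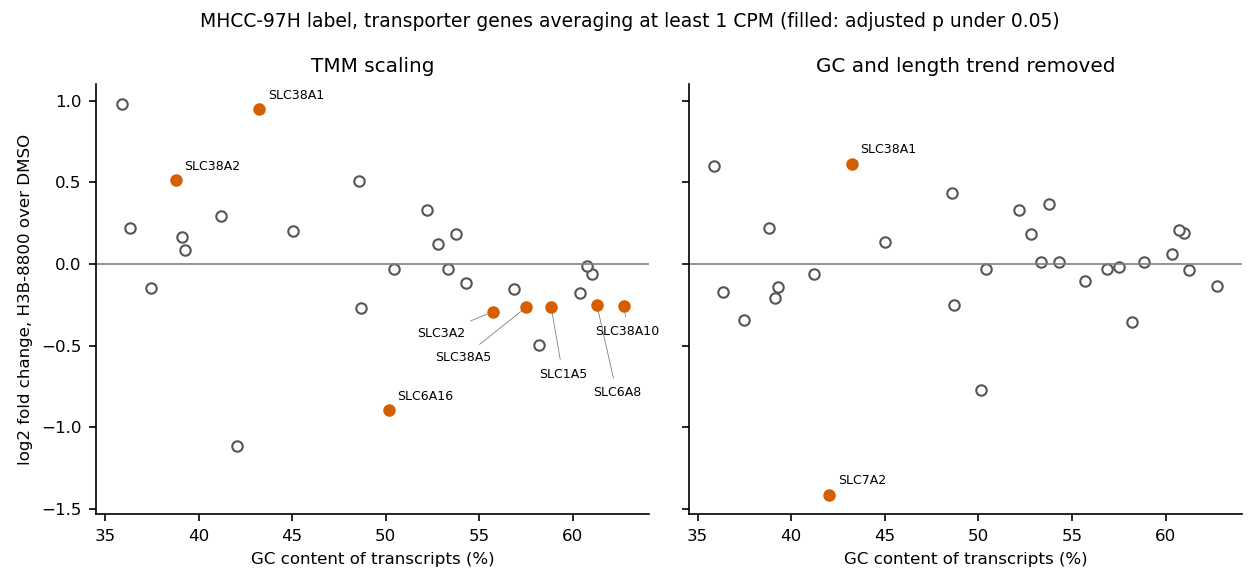
Log2 fold change of 29 transporter genes (H3B-8800 over DMSO, MHCC-97H label) against the GC content of their transcripts, with TMM scaling (left) and with each library's GC and length trend removed (right); filled points have an adjusted p under 0.05. The 5 called falls at 55.7% to 62.7% GC lie between -0.14 and 0.011 on the right, and SLC38A1 lies at 0.62.

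No transporter gene passed edgeR's test in the other libraries. With the MDA-MB-231 label, 0 of 41 genes were called, against 0.0351% of all genes (5 genes), and 6 transporter genes were under an unadjusted p of 0.05, against 7.19% of all genes. DESeq2 called 49 of all 14234 genes there, of which 1 was a transporter gene, SLC6A20, a carrier of proline and other imino acids. It had 13.5, 13.3 and 15.2 CPM in the H3B-8800 libraries, against 10.7, 10.3 and 10.2 CPM in the DMSO libraries, with no overlap and a log2 fold change of 0.43 (standard error 0.11, adjusted p = 0.440, edgeR). Every H3B-8800 library lay above every DMSO library for 6 of 41 genes (8.67% of all genes) and below for 2 of 41 (9.86%).

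With the HCT-116 label, 0 of 41 genes were called, against 0.0351% of all genes, and 2 were under an unadjusted p of 0.05, against 4.6% of all genes. DESeq2 called 0 of the 41 there too, against 22 of all 14234 genes. The groups separated upward for 1 gene (3.71% of all genes) and downward for 1 gene (3.29%). SLC38A1, the gene with the lowest adjusted p under MHCC-97H, had 387, 352 and 321 CPM in MDA-MB-231 H3B-8800 libraries, against 443, 416 and 377 CPM in MDA-MB-231 DMSO libraries, and 436, 235 and 433 CPM in HCT-116 H3B-8800 libraries, against 438, 265 and 415 CPM in HCT-116 DMSO libraries. Treated and control libraries overlapped under both labels, and the log2 fold changes were -0.22 and -0.02, each with a standard error of 0.21. SLC1A5 stood at 671, 662 and 706 CPM in MDA-MB-231 H3B-8800 libraries, against 630, 564 and 632 CPM in MDA-MB-231 DMSO libraries, a log2 fold change of 0.16 with a standard error of 0.07 (adjusted p = 0.661, edgeR).

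The difference between labels was tested itself. The H3B-8800 effect under MHCC-97H minus the mean effect under the other 2 labels passed the threshold for 7 of 41 transporter genes, 2 higher and 5 lower, against 25.4% of all genes (12.2% higher and 13.2% lower). SLC38A1 differed by 1.07 (standard error 0.26, adjusted p = 0.0109, edgeR) and SLC38A2 by 0.62 (0.21, 0.0459) on the log2 scale. SLC1A5 differed by -0.38 (0.08, 0.00659), SLC38A5 by -0.33 (0.08, 0.00786), SLC6A8 by -0.29 (0.07, 0.00982), SLC3A2 by -0.36 (0.12, 0.0439) and SLC7A2 by -1.59 (0.52, 0.0362). The calls of SLC38A1, SLC1A5, SLC38A5 and SLC6A8 held without any 1 of the 18 libraries. The call of SLC38A2 ended when any MHCC-97H library but DMSO replicate 2 was left out, or any treated library of the other labels, or HCT-116 DMSO replicates 1 or 3 (adjusted p = 0.0518 to 0.109). That of SLC3A2 ended without any 1 of the 6 MHCC-97H libraries, MDA-MB-231 DMSO replicates 1 or 2, treated MDA-MB-231 libraries 2 or 3, or HCT-116 DMSO replicates 1 or 3 (0.0586 to 0.0878). That of SLC7A2 ended without any 1 of the 6 MHCC-97H libraries, MDA-MB-231 DMSO replicates 2 or 3, the first or second treated MDA-MB-231 library, HCT-116 DMSO replicate 1, or treated HCT-116 libraries 2 or 3 (0.0510 to 0.0914), and also with the replicate number as a block (-1.53, adjusted p = 0.0579). The number of calls was 4 without MHCC-97H DMSO replicate 1 and 4 without MHCC-97H H3B-8800 replicate 2. Over all genes those fits called 3609 of 14390 and 2387 of 14394. Unadjusted, 37.7% of all genes had a p under 0.05. With all 6 MDA-MB-231 libraries left out, 0 of the transporter genes passed, and 21 of all 14075 genes did. SLC38A1 then differed by 0.97 (adjusted p = 0.104, edgeR) and SLC1A5 by -0.35 (0.0771). Without the 6 HCT-116 libraries 7 transporter genes passed, and 3440 of all 14115 genes did. Between MDA-MB-231 and HCT-116 the effect differed for 0 of 41 genes, against 0.0351% of all genes, and at an unadjusted p under 0.05 for 3 of 41, against 4.13% of all genes.

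**Figure D4:**
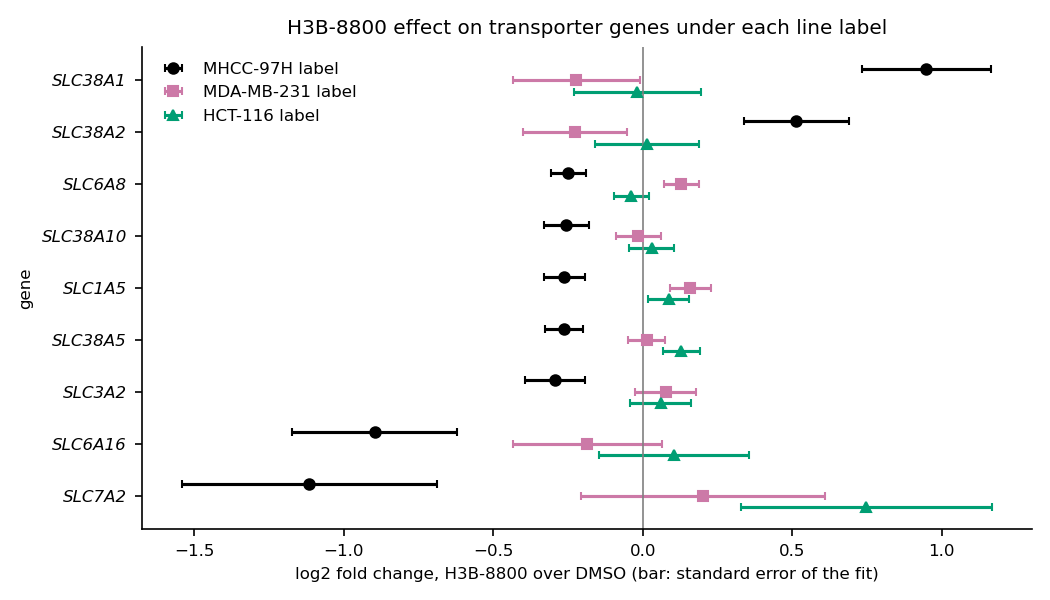
Log2 fold change, H3B-8800 over DMSO, of 9 transporter genes called in either comparison that includes the MHCC-97H label, under each line label; bars are the standard error of the fit over 18 libraries. SLC38A1 lies at 0.95 under MHCC-97H and at -0.22 and -0.02 under MDA-MB-231 and HCT-116, and SLC1A5 lies at -0.26 under MHCC-97H and at 0.16 and 0.09 under the other 2.

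More transporter genes differed between labels than between treatments. In DMSO libraries, 35 of 41 transporter genes differed between MHCC-97H and the mean of the other 2 labels, 12 higher and 23 lower, against 84.6% of all genes (40.7% higher and 43.9% lower). At an unadjusted p under 0.05 it was 35 of 41 and 85.3% of all genes. The median log2 difference was -1.05 over the 41 genes and -0.08 over all genes tested. SLC1A7, SLC38A11, SLC6A20 and SLC7A9 had 0 counts in the 6 MHCC-97H libraries. SLC6A15, SLC6A7 and SLC6A17 had 0 in the 12 others. Such genes could pass the low-count filter only through the side where they are high, so the filter fixed the direction of their difference. They are among the 41 genes tested, as their like are among all genes tested. With library totals in place of TMM the median of all genes moved to -0.35. In bulk RNA, fewer cells of a type and less RNA per cell cannot be told apart.

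Of the glutamate carriers, SLC1A1 was higher and SLC1A7 lower under MHCC-97H. SLC1A1, a neuronal and epithelial glutamate carrier, had 48.1, 46.9 and 47.6 CPM in MHCC-97H DMSO libraries, against 2.32, 2.97 and 1.82 CPM in MDA-MB-231 and 2.95, 1.73 and 2.52 CPM in HCT-116 DMSO libraries, a log2 difference of 4.31 (standard error 0.14, adjusted p = 5.74e-14, edgeR). SLC1A7, known from the retina, had 0 counts in all 6 MHCC-97H libraries, which allows up to 0.0154 CPM (3 counts over the 6 libraries, counting error only). It had 42.4, 40.7 and 48.0 CPM in MDA-MB-231 DMSO libraries and 47.4, 47.7 and 44.4 CPM in HCT-116 DMSO libraries, so it was at least 1311-fold lower under MHCC-97H than under the other labels in DMSO, with 3 counts over the group as the floor. SLC1A5 had 186, 190 and 186 CPM in MHCC-97H DMSO libraries, against 616 ± 35.9 CPM in the other 6 DMSO libraries (SD, n = 6), a log2 difference of -1.72.

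The cystine carrier was lower, and the leucine carrier higher, under MHCC-97H. SLC7A11 had 2.91, 1.22 and 2.35 CPM in MHCC-97H DMSO libraries, against 62.5 ± 16.2 CPM in the other 6 DMSO libraries (SD, n = 6), a log2 difference of -4.82 (standard error 0.37, adjusted p = 7.05e-09, edgeR). SLC7A5 averaged 875 ± 30.9 CPM in MHCC-97H DMSO libraries (SD, n = 3), against 503 ± 135 CPM in the other 6, a difference of 0.81. Once the GC and length trend was taken out, it was 0.24 and did not pass the threshold (adjusted p = 0.196). SLC3A2, their shared partner, averaged 281 ± 0.497 CPM in MHCC-97H DMSO libraries, against 130 ± 11.1 CPM in the other 6 DMSO libraries, a difference of 1.11. SLC7A7, the light chain of cationic amino acid efflux, differed by -5.41 on the log2 scale (0.364, 0.162 and 0.154 CPM in MHCC-97H DMSO libraries, against 9.89 ± 1.07 CPM in the other 6 DMSO libraries). With at most 11 counts in a MHCC-97H library, SLC7A7 could pass the low-count filter only through the other labels, where it is high.

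The SLC43 family split as well. SLC43A1 and SLC43A2, facilitators of leucine and other large neutral amino acids, averaged 0.644 ± 0.0990 and 0.511 ± 0.178 CPM in MHCC-97H DMSO libraries (SD, n = 3), against 26.5 ± 3.37 and 21.5 ± 1.38 CPM in the other 6, log2 differences of -5.36 and -5.35. SLC43A3, the purine nucleobase carrier, averaged 43.0 ± 7.12 CPM in MHCC-97H DMSO libraries, against 1.89 ± 0.357 CPM in the other 6, a difference of 4.52. Each of the 3 genes was far outside the spread of both groups.

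In the SLC38 family 7 of 8 tested genes were lower and 1 higher under MHCC-97H, against 43.9% and 40.7% of all genes. SLC38A1 differed by -2.65 and SLC38A2 by -1.79 on the log2 scale. With H3B-8800 both were higher under MHCC-97H, at up to 121 CPM for SLC38A1 and up to 217 CPM for SLC38A2, yet below every library of the other labels (lowest 235 and 430 CPM). SLC38A9 averaged 1.99 ± 0.590 CPM in MHCC-97H DMSO libraries, against 9.23 ± 0.917 CPM in the other 6, a difference of -2.22. SLC38A5 was the exception, at 225 ± 6.62 CPM in MHCC-97H DMSO libraries, against 171 ± 8.45 CPM in the other 6. SLC38A11 had 0 counts in the MHCC-97H libraries and was at least 112-fold lower there. It is 1 of the 7 lower genes, and the low-count filter, which it could pass only through the other labels, fixed its direction.

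Several SLC6 genes were detected on one side only, and could pass the low-count filter through that side alone. SLC6A15, a carrier of branched-chain amino acids and proline known from brain, averaged 26.4 ± 3.06 CPM in MHCC-97H DMSO libraries (SD, n = 3) and had 0 counts in all 12 libraries of the other labels, at least a 2013-fold difference. SLC6A7, the brain proline carrier, was at least 529-fold higher and SLC6A17, a synaptic vesicle carrier, at least 170-fold higher under MHCC-97H, with 0 counts in the same 12 libraries. SLC6A14, a broad carrier of neutral and cationic amino acids, averaged 1.39 ± 0.177 CPM in MHCC-97H DMSO libraries, against 0 in all but 1 of the other DMSO libraries (0.0517 CPM in HCT-116 replicate 2). In the opposite direction, SLC6A20 had 0 counts under MHCC-97H and was at least 314-fold lower, and the betaine and GABA carrier SLC6A12 (at least 26.9-fold lower) and the glutamate carrier SLC1A2 (at least 34.3-fold lower) had 0 counts in the MHCC-97H DMSO libraries. Among the 6 genes that did not pass the test between labels was SLC7A1, at 75.3 ± 1.81 CPM in MHCC-97H DMSO libraries (SD, n = 3), against 71.0 ± 4.03 CPM in the other 6, a difference of 0.09 (standard error 0.05, adjusted p = 0.137, edgeR).

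A last feature concerned single libraries. Among transporter genes averaging at least 5 CPM in a group, those whose highest library exceeded 2 times the lowest numbered 1 of 19 in MHCC-97H H3B-8800 and 2 of 20 in MHCC-97H DMSO libraries, 3 of 26 in MDA-MB-231 H3B-8800 and 3 of 26 in MDA-MB-231 DMSO, and 3 of 25 in HCT-116 H3B-8800 and 2 of 25 in HCT-116 DMSO. The shares of all genes in the same groups were 2.65%, 2.26%, 2.51%, 2.8%, 4.95% and 3.36%. All 14 cases came from SLC6A6, SLC7A6, SLC7A2, SLC7A11 and SLC7A5, which were picked out after their values were seen.

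SLC6A6, the taurine carrier, took 2 levels within groups. It had 959, 963 and 259 CPM in MDA-MB-231 H3B-8800 libraries, against 849, 230 and 222 CPM in MDA-MB-231 DMSO libraries. All 6 HCT-116 libraries lay between 822 and 905 CPM. Under MHCC-97H it had 137, 300 and 313 CPM in H3B-8800 libraries, against 139, 148 and 310 CPM in DMSO libraries. Treated and control groups overlapped under every label, and the log2 fold changes of 0.74 (MDA-MB-231, adjusted p = 0.817) and 0.33 (MHCC-97H, adjusted p = 0.718) had a standard error of 0.55 each (edgeR).

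SLC7A6, a light chain that exchanges cationic for neutral amino acids, had 7.69, 22.6 and 5.87 CPM in MDA-MB-231 H3B-8800 libraries, against 6.34, 22.4 and 5.36 CPM in MDA-MB-231 DMSO libraries, so replicate 2 was high in both. Under HCT-116 it had 16.5, 6.39 and 20.4 CPM in H3B-8800 libraries, against 6.15, 5.79 and 7.07 CPM in DMSO libraries. Its exons overlap SLC7A6OS, which showed no such split (13.2 to 25.1 CPM in all 18 libraries). SLC7A11 had 74.1, 32.5 and 72.8 CPM in HCT-116 H3B-8800 libraries, against 66.1, 31.4 and 68.5 CPM in HCT-116 DMSO libraries, and SLC38A1 was likewise lowest in replicate 2 of both. These libraries also stood farthest from their fellows over all genes: chi-square per gene between HCT-116 replicate 2 and another library of its group was 59.3 and 63.1 with H3B-8800 and 41.0 and 48.9 with DMSO, and at most 31.5 for all other pairs. Whether that distance bears on the SLC7A11 and SLC38A1 values was not tested.

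**Figure D5:**
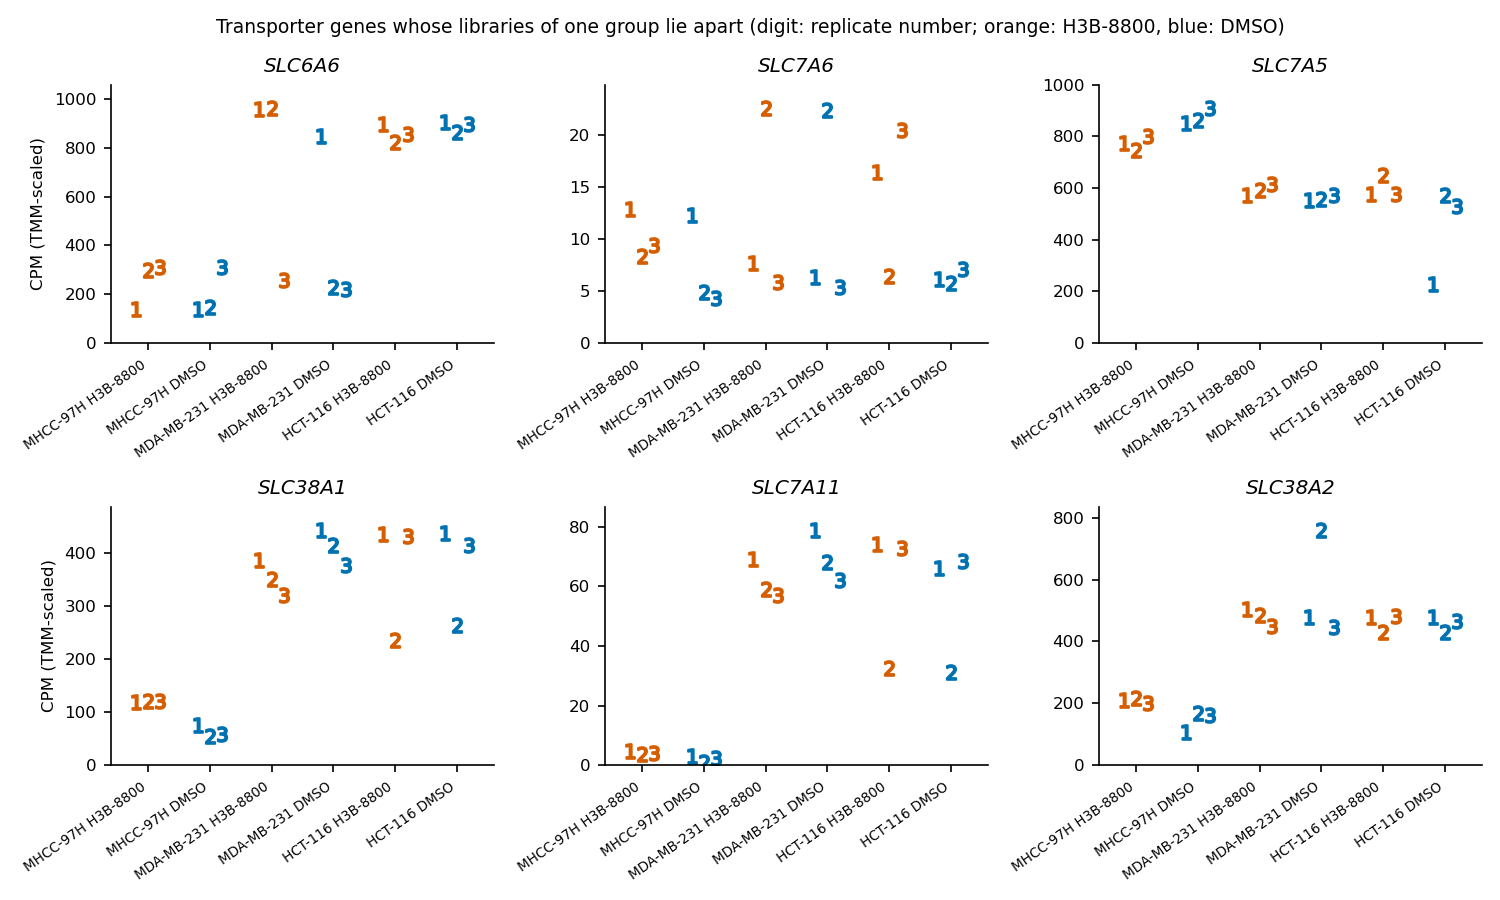
CPM of 6 transporter genes in all 18 libraries, each drawn as its replicate number (orange H3B-8800, blue DMSO), with y axes that start at 0. SLC6A6 lies at 222 to 259 CPM or at 849 to 963 CPM in MDA-MB-231 libraries, and SLC7A11 and SLC38A1 are low in replicate 2 of both HCT-116 groups.

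Genes around the transporters were followed in lists. Of 17 tested amino acid carriers outside these families, 1 rose and 3 fell under MHCC-97H, against 12.9% and 14.7% of all genes (median log2 fold change -0.15, against -0.06 for all genes): SFXN1, the mitochondrial serine carrier, rose by 0.21 (standard error 0.04, adjusted p = 0.00335, edgeR), MFSD12, which brings cysteine into lysosomes and melanosomes, fell by 0.33 (0.09, 0.0119), SLC25A38, a mitochondrial glycine carrier, fell by 0.26 (0.09, 0.0407) and SFXN3 fell by 0.19 (0.04, 0.00546). Of 24 genes of the GCN2 and ATF4 pathway, which senses uncharged tRNA and other stresses, 8 rose and 5 fell (median -0.14). The shares of all genes were 12.9% higher and 14.7% lower. EIF2AK3, which encodes the eIF2 kinase PERK, averaged 11.8 CPM in H3B-8800 libraries, against 7.21 CPM in DMSO libraries (log2 fold change 0.71, standard error 0.14, adjusted p = 0.00332, edgeR). CEBPG, a dimer partner of ATF4, rose by 0.42 (0.08, 0.00349), and PSAT1, a serine synthesis enzyme, by 0.22 (0.04, 0.00332). EIF2AK4, which encodes GCN2 and is named after its values were seen, averaged 30.3 CPM in H3B-8800 libraries, against 19.5 CPM in DMSO libraries (0.64, 0.13, 0.00392). ATF4 itself fell by 0.22 (standard error 0.04, adjusted p = 0.00193), with 399 CPM in H3B-8800 libraries, against 465 CPM in DMSO libraries. Here too the genes named as higher hold 41.9% to 45.3% GC, and those named as lower hold 52.5% to 64.1%.

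Among the same 17 and 24 genes, 0 passed edgeR's test in MDA-MB-231 libraries, against 5 of all 14234 genes (0.0351%). Under HCT-116, 2 of the 24 pathway genes rose and none of the 17 carriers did, against 5 of all 14234 genes called (0.0351%). PSAT1 averaged 127 CPM in HCT-116 H3B-8800 libraries, against 93.9 CPM in DMSO libraries (log2 fold change 0.43, standard error 0.04, adjusted p = 0.000311, edgeR), and ASNS, asparagine synthetase, averaged 135 CPM, against 97.4 CPM in DMSO libraries (0.47, 0.06, 0.00247). No transporter gene passed the test beside them.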

How the data were processed

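The deposited table holds whole-number counts per gene, made by the authors and not normalized. Reads were processed with fastp and HISAT2 on GRCh38, per the submitters' processing notes; versions, counting tool and strand setting are not stated by the labels or notes at hand. Without a known strand setting, genes that overlap on opposite strands cannot be told apart. Symbols, coordinates, lengths and GC content came from GENCODE release 29 (20224 of 20263 genes), and promoter windows from RefSeq.

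Groups follow the labels. Counts passed edgeR 4.0.16 in R 4.3.3: default group-wise low-count filter (14234 genes), TMM scaling, robust quasi-likelihood fit over all 18 libraries with 6 group means and no covariate. P-values were Benjamini-Hochberg adjusted over 14234 genes, with 0.05 as the threshold. Log2 fold changes are H3B-8800 over DMSO. CPM are TMM-scaled. A count of 0 is given the level of 3 counts as its upper limit, for counting error only. Fits were tested on simulated data.

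The named genes are those called in any comparison of treatment effects (up to 20), the 12 highest per kilobase, 6 well known members fixed by name, and the 5 largest label differences per direction; further members were described with their values seen. The members and lists were chosen with earlier results of these data known.

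Alternatives were RLE scaling, upper quartiles, library totals, no low-count filter, a filter of 50 counts in 3 libraries, the replicate number as a block, DESeq2 1.42.0, limma 3.58.1 voom, the 6 libraries of a label alone, removal of a spline trend (5 degrees of freedom) on GC content and length, and leaving out each library. Leaving out all libraries of the MDA-MB-231 or HCT-116 label was added after seeing the data. Replicate numbers are shared across groups, but no label says that they mark a shared culture or day. Over 10625 genes averaging at least 5 CPM, same-number libraries under HCT-116 were all positively correlated (r = 0.129, 0.333 and 0.140). Those under MHCC-97H gave -0.0224, 0.136 and 0.0252, and those under MDA-MB-231 0.221, 0.0823 and 0.0595. Different-number pairs ran from -0.329 to 0.241 under HCT-116, -0.140 to 0.115 under MHCC-97H and -0.181 to 0.0991 under MDA-MB-231. The 2 kinds of pairs thus overlapped under every label. Over all 14234 genes the same-number HCT-116 values were 0.0501, 0.192 and 0.0319. No pair of libraries within a group was a duplicate. Pairs from different groups were not compared in this way.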

Additional observations from a re-analysis of the deposited data

Results flagged for a closer look

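For 7 transporter genes, the H3B-8800 effect under the MHCC-97H label differed from the mean effect under the other 2 labels by the test of that difference (edgeR, adjusted p under 0.05 over all genes). On the log2 scale the difference was 1.07 for SLC38A1 and 0.62 for SLC38A2, the carriers that were higher with H3B-8800 under MHCC-97H. It was -0.38 for SLC1A5, -0.33 for SLC38A5, -0.29 for SLC6A8, -0.36 for SLC3A2 and -1.59 for SLC7A2. The MDA-MB-231 and HCT-116 libraries shared nearly the same profile. Once each library's GC trend was taken out, the differences of SLC38A2 (0.25, adjusted p = 0.531), SLC1A5 (-0.053, 0.571), SLC38A5 (-0.034, 0.691), SLC6A8 (-0.040, 0.412) and SLC3A2 (-0.13, 0.345) did not pass the threshold. With library totals, SLC38A5 (adjusted p = 0.0791, edgeR), SLC6A8 (0.130), SLC3A2 (0.252) and SLC7A2 (0.0665) did not pass. By limma voom, SLC7A2 (0.0728) and SLC38A2 (0.0520) did not. SLC38A1 did not pass without the libraries labelled MDA-MB-231 (adjusted p = 0.104, edgeR).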

How the results depend on the processing

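Under MHCC-97H the 8 calls became 4 with library totals, 2 once the trend on GC content and length was taken out, and 2 when the replicate block was added to that. Over all 14234 genes the 3922 calls became 2847, 2102 and 2416 in the same settings. Leaving out 1 library at a time gave 3 to 10 calls, and 2141 to 4455 over all genes. The 7 differences between labels became 2 without the GC trend and 3 with the block added, and ranged from 4 to 9 without 1 library. Over all genes the 3615 differences became 1750 and 2151, and ranged from 2266 to 4099. Without the libraries labelled MDA-MB-231, 0 transporter genes were called (21 of 14075 genes were). Without those labelled HCT-116, 7 were called (3440 of 14115 genes were). Without the trend on GC content and length, alone and with the block, SLC1A5 under MHCC-97H turned to 0.011 and 0.011, SLC7A5 to 0.059 and 0.059 and SLC38A9 to -0.060 and -0.048. DESeq2 called 1 transporter gene under MDA-MB-231, and 49 of all 14234 genes. The label comparison in DMSO gave 34 to 36 without 1 library, and the other 4 comparisons gave 0 each time. Over all genes those fits gave 11732 to 12233 in the label comparison and at most 15 in the other 4. The replicate block alone gave 10 calls under MHCC-97H, among them SLC7A11 (log2 fold change 1.02, adjusted p = 0.000821, edgeR). It gave 8 differences in effect between labels and 36 label differences in DMSO, and 0 in the other 4 comparisons, HCT-116 included. Over all 14234 genes the block gave 4665 calls under MHCC-97H, 4445 differences in effect and 12146 label differences. The causes were not tested. Of single genes, 874 values kept their direction and call, 119 lost the call, 8 gained one and 6 changed sign. The block ended the SLC7A2 difference in effect (-1.53, adjusted p = 0.0579). Depth limits genes such as SLC43A1 and SLC7A7 under MHCC-97H, with at most 23 and 11 counts in a library.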

Other observations

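Genes that read amino acid supply through mTORC1 went up and down in MHCC-97H libraries: of 35 tested, 3 rose and 8 fell (median log2 fold change -0.19, against -0.06 for all genes, of which 12.9% rose and 14.7% fell). FNIP2, which encodes a partner of the lysosomal GTPase regulator folliculin, averaged 6.30 CPM in H3B-8800 libraries, against 2.88 CPM in DMSO libraries (1.12, standard error 0.26, adjusted p = 0.00789, edgeR). MTOR rose by 0.23 (0.06, 0.00887). RHEB, the GTPase that switches mTORC1 on, averaged 178 CPM in H3B-8800 libraries, against 223 CPM in DMSO libraries (-0.33, standard error 0.07, adjusted p = 0.00645), and TSC2, part of the complex that inactivates RHEB, averaged 71.6 CPM, against 90.2 CPM in DMSO libraries (-0.33, 0.07, 0.00554). RHEB holds 44.8% GC and TSC2 60.6%.

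Of 11 genes of glutathione and cystine use, 4 fell and none rose under MHCC-97H, against 14.7% lower and 12.9% higher of all genes (median -0.16, against -0.06). GPX4, which reduces lipid peroxides with glutathione, averaged 184 CPM in H3B-8800 libraries, against 233 CPM in DMSO libraries (-0.35, standard error 0.05, adjusted p = 0.00127, edgeR). GGT1, which cleaves extracellular glutathione, fell by 0.36 (0.09, 0.00816), GSS, glutathione synthetase, by 0.27 (0.07, 0.0116) and GSR, glutathione reductase, by 0.20 (0.06, 0.0156). In MDA-MB-231 and in HCT-116 libraries 0 of the 35 and 0 of the 11 passed edgeR's test, against 0.0351% of all genes under each label.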
